A study of Daphnia magna with 48 samples.

Results

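This report covers 53 array probes of Daphnia magna, a freshwater water flea, that differed the same way with both alcohols and with 3,4-dichlorophenol. The 53 were chosen by measured values, out of 6006 probes. For each chemical the mean of its 3 control arrays was subtracted from the mean of its 3 exposed arrays. A probe was kept when this log2 difference had one sign and a size of at least 0.3 with isobutanol, 3-chloropropanol and 3,4-dichlorophenol, and a size under 0.3 with cadmium and 2,3,4-trichloroaniline. This gave 25 rising and 28 falling members. Rising and falling are names for the sign of those 3 differences, which are therefore given as a description and without a test.

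Newborn daphnids were exposed for 96 h to isobutanol, 3-chloropropanol, 3,4-dichlorophenol, 2,3,4-trichloroaniline, cadmium, aniline, 4-chloroaniline or 3,5-dichloroaniline, each at the EC10, which left 10% of animals immobile in immobilization tests. Each chemical had its own unexposed control group, so there were 16 groups of 3 arrays. Each array held whole-body RNA of 30 pooled animals at day 4 and a universal reference, a mix of exposed and control RNA, in opposite dyes. The labels give a medium renewal every 48 h for the 4 anilines, controls included, and none for the other chemicals. The study's non-polar narcotics were the 2 aliphatic alcohols, isobutanol and 3-chloropropanol. The other organic chemicals are substituted benzenes and its polar narcotics.

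Narcosis is the baseline toxicity that organic chemicals share when they dissolve in cell membranes and disturb them. Polar narcotics carry a group such as the amino group of anilines or the hydroxyl group of phenols and tend to be more toxic than their affinity for membranes alone would give. Cadmium is a toxic metal that binds to thiol groups and, in many animals, induces metal-binding proteins, so it stands outside both classes. The files pair no probe with a gene and give no probe sequence, and 0 of the 6006 probe names matched an entry of the RefSeq gene table. The members are therefore described by probe name and by their levels. No 2 of the 53 share a name stem, the part before the final P and number. For the same reason, the labelled whole-body tissue could not be checked against marker genes, and a change in the number of cells of one kind cannot be told apart from a change in RNA per cell.

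A level is the log2 ratio of sample and reference as deposited, and it compares samples for 1 probe, not probes with each other. That the ratio is sample over reference is likely and is stated nowhere. With the opposite sign, rising members would be falling ones and every count of calls would be the same. In 32 pairs of opposite-dye arrays within a group the median correlation over probes was 0.44, so swapped arrays had already been turned. Array medians lay between -0.02 and 0.01. Isobutanol arrays had the widest spread, with an SD across probes of 0.53 to 0.68, against 0.23 to 0.51 on all other arrays.

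The 3-chloropropanol arrays stood apart by dye. The exposed replicates 1 and 2, in Cy3, had a correlation of 0.84, and exposed replicate 3, in Cy5, had 0.28 and 0.24 with them. For the controls, replicates 1 and 3 in Cy5 had 0.94, while replicate 2 in Cy3 had 0.11 and 0.12 with them. Set against 3,4-dichlorophenol arrays of the same treatment, the 3 Cy3 arrays had a mean correlation of 0.70 (0.57 to 0.84 over 9 pairs) and the 3 Cy5 arrays one of 0.17 (0.02 to 0.29 over 9 pairs). The Cy3 arrays of 3-chloropropanol thus resembled the 3,4-dichlorophenol arrays of both dyes. Both chemicals define the members, and results are given below with and without 3-chloropropanol.

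The choice began with 1551 probes that differed by at least 0.3 with isobutanol, 1520 with 3-chloropropanol and 1096 with 3,4-dichlorophenol. Of these, 309 had the same sign with all 3 chemicals, 189 higher and 120 lower. The label of the members as not shared with cadmium rests on the limit of 0.3. Cadmium had a difference of at least 0.3 in the same direction for 98 of the 189 and 70 of the 120, and in the opposite direction for 9 and 4. 2,3,4-Trichloroaniline had the same direction for 82 and 49 and the opposite one for 54 and 12. Both limits together left the 25 and the 28.

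Among the rising members the differences ran from 0.32 to 1.10 with isobutanol (median 0.53), from 0.30 to 1.03 with 3-chloropropanol (median 0.40) and from 0.31 to 0.82 with 3,4-dichlorophenol (median 0.49). Among the falling members they ran from -1.53 to -0.37 with isobutanol (median -0.65), from -1.14 to -0.31 with 3-chloropropanol (median -0.44) and from -1.03 to -0.30 with 3,4-dichlorophenol (median -0.48). The medians over all 6006 probes were -0.004, 0.02 and 0.01. With cadmium, 20 of 25 rising members were positive and 21 of 28 falling members negative (medians 0.12 and -0.09). With 2,3,4-trichloroaniline these counts were 15 and 23 (medians 0.01 and -0.14). Of all probes, 51.5% were positive with cadmium and 48.5% with 2,3,4-trichloroaniline. The typical 95% confidence half-width of 1 difference was 0.34 for rising and 0.33 for falling members, wider than the limit of 0.3, so a value under the limit does not show that a probe was unaffected.

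Near the threshold, the rising member DM06945P1 had 0.56 with isobutanol, 0.302 with 3-chloropropanol and 0.46 with 3,4-dichlorophenol, and DM12094P1 was left out at 0.43, 0.38 and 0.29996. The falling member DM06664P3 had -0.56, -0.32 and -0.303, and DM06047P1 was left out at -0.50, -0.31 and -0.299. At the other limit, DM10652P1 was kept with 0.299 for 2,3,4-trichloroaniline and DM02496P3 was left out with 0.309. The members are thus a slice of a continuous range. Leaving out each of the 30 arrays of the 5 chemicals in turn kept 2 of the 25 rising and 4 of the 28 falling members in every case.

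The level of the rising members, as the mean of the 3 array medians, was 0.14 ± 0.03 in exposed animals and -0.34 ± 0.08 in controls with isobutanol (SD, n = 3). With 3-chloropropanol it was 0.36 ± 0.09 in exposed animals and -0.11 ± 0.09 in controls. With 3,4-dichlorophenol it was 0.42 ± 0.23 in exposed animals and -0.06 ± 0.08 in controls. The highest of the 16 groups were thus the animals exposed to 3,4-dichlorophenol and the lowest were the isobutanol controls. With cadmium the level was 0.24 ± 0.07 in exposed animals and 0.15 ± 0.07 in controls, and with 2,3,4-trichloroaniline 0.10 ± 0.01 in exposed animals and 0.09 ± 0.06 in controls. In the experiments with aniline, 4-chloroaniline and 3,5-dichloroaniline, the exposed groups lay between -0.06 and 0.04 and the controls between -0.11 and 0.04.

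The level of the falling members was -0.40 ± 0.12 in exposed animals and 0.38 ± 0.10 in controls with isobutanol (SD, n = 3). It was -0.43 ± 0.06 in exposed animals and 0.06 ± 0.13 in controls with 3-chloropropanol, and -0.55 ± 0.11 in exposed animals and -0.05 ± 0.05 in controls with 3,4-dichlorophenol. In the 5 experiments with the other chemicals, group values lay between -0.28 and -0.03. The cadmium groups stood at -0.28 ± 0.14 in exposed animals and -0.16 ± 0.14 in controls. The 2,3,4-trichloroaniline groups stood at -0.23 ± 0.08 in exposed animals and -0.15 ± 0.05 in controls.

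Isobutanol and 3,4-dichlorophenol had different starting levels. Their median differences were 0.53 and 0.49 for rising members and -0.65 and -0.48 for falling members. For isobutanol, the control mean was above those of the other 7 control groups in 19 of 28 falling members (67.9%, against 26.9% of all probes), and the exposed mean was below all 8 control means in 14 (50.0%, against 12.8%). For 3,4-dichlorophenol, the control mean was above the others in 2 of 28 (7.14%, against 6.93% of all probes), and the exposed mean was below all 8 in 20 (71.4%, against 12.5%). Among the 25 rising members, the isobutanol-exposed mean was above all 8 control means in 9 (36.0%, against 13.8% of all probes) and the isobutanol control mean below the others in 13 (52.0%, against 26.0%). The 3,4-dichlorophenol-exposed mean was above all 8 in 16 (64.0%, against 13.3%) and its control mean below the others in 0, against 9.04% of all probes. In the cadmium experiment the control mean was itself below the other 7 in 9 of 28 falling members (32.1%, against 8.38% of all probes). It was above the other 7 in 9 of 25 rising members (36.0%, against 8.69%). These are descriptions of means that the choice used.

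The 2 rising and 2 falling members with the largest smallest difference among the 3 chemicals show these patterns array by array. DM12602P2 (rising) had -0.37, -0.63 and -0.37 in exposed animals and -0.96, -1.57 and -1.40 in controls with isobutanol. It had 0.48, 0.75 and 0.59 in exposed animals and 0.05, -0.17 and 0.11 in controls with 3-chloropropanol. It had 0.80, 0.13 and 0.38 in exposed animals and -0.27, -0.25 and -0.12 in controls with 3,4-dichlorophenol. The groups did not overlap with any of the 3 chemicals. Even so, the 3 arrays of isobutanol-exposed animals lay below every control array of the other 7 experiments except 3,5-dichloroaniline control replicate 2, at -0.43.

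DM04759P2 (rising) had 0.13, 0.55 and 0.72 in exposed animals and -0.26, 0.11 and 0.02 in controls with isobutanol. With 3-chloropropanol it had 1.04, 1.19 and 0.06 in exposed animals and -0.33, -0.10 and -0.36 in controls. With 3,4-dichlorophenol it had 1.44, 0.39 and 0.68 in exposed animals and -0.18, 0.05 and 0.19 in controls. No groups overlapped, but the 3-chloropropanol difference was carried by the 2 exposed Cy3 arrays, and the array at 0.06 was the exposed Cy5 array.

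DM11322P1 (falling) had -0.14, -0.38 and 0.24 in exposed animals and 0.45, 0.91 and 0.83 in controls with isobutanol. With 3-chloropropanol it had -0.73, -1.15 and -0.83 in exposed animals and 0.51, -0.74 and 0.52 in controls. With 3,4-dichlorophenol it had -1.74, -1.05 and -1.48 in exposed animals and -0.32, -0.23 and -0.82 in controls. The 3-chloropropanol groups overlapped, since the Cy3 control lay among the exposed arrays.

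DM01970P1 (falling) had -1.25, -1.30 and -1.32 in exposed animals and 0.30, 0.06 and 0.02 in controls with isobutanol. With 3-chloropropanol it had -0.21, -0.47 and -1.51 in exposed animals and 0.01, 0.29 and -0.04 in controls. With 3,4-dichlorophenol it had -0.81, -0.24 and -0.67 in exposed animals and 0.39, 0.20 and 0.46 in controls. It had -0.91, -0.86 and -0.74 in cadmium-exposed animals and -0.80, -0.90 and -0.95 in cadmium controls, so that both cadmium groups were as low as animals exposed to 3,4-dichlorophenol.

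Separation of single arrays was less frequent with 3-chloropropanol. All exposed arrays lay above all controls in 22 of 25 rising members with isobutanol, 14 with 3-chloropropanol and 18 with 3,4-dichlorophenol, where the choice used these contrasts (16.4%, 9.46% and 10.8% of all probes). All exposed arrays lay below all controls in 23, 17 and 24 of 28 falling members (16.5%, 7.39% and 9.44% of all probes). Compared within each dye, the sign of the difference was the same in Cy3 and Cy5 for all 53 members with isobutanol and with 3,4-dichlorophenol. Of all probes that differed by at least 0.3, 96.5% of the higher and 93.7% of the lower had this with isobutanol, and 93.5% and 89.4% with 3,4-dichlorophenol. With 3-chloropropanol it was the same for 20 of 25 (80.0%) and 23 of 28 (82.1%), close to the 76.8% and 79.9% of all such probes. There, falling members had a median of -0.29 in Cy3 and -0.54 in Cy5. The 2 alcohols had the same dye layout, with 2 of 3 controls in Cy5 and 2 of 3 exposed samples in Cy3, and 3,4-dichlorophenol had the opposite one. Choosing with limma effects adjusted for dye gave 25 rising and 29 falling probes, of which 17 and 22 were members.

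The choice was repeated without single chemicals, so that each left-out chemical could be tested on arrays that played no part. For 3-chloropropanol and 3,4-dichlorophenol this does not make the test independent where either chose probes for the other. The Cy3 arrays of 3-chloropropanol resembled the 3,4-dichlorophenol arrays. For these 2 chemicals a choice by isobutanol alone is therefore given as well, added after the other results were seen. Tests were moderated limma tests over all 6006 probes, with 16 group means and a dye term, and a probe was called at a Benjamini-Hochberg adjusted p under 0.05. Without the isobutanol arrays, 61 rising and 49 falling probes were chosen by 3-chloropropanol and 3,4-dichlorophenol with the same limits. Isobutanol was called higher on 10 of the 61 (16.4%, against 6.29% of all probes) and lower on 22 of the 49 (44.9%, against 6.34%). None of the 110 was called in the opposite direction. The isobutanol difference had the sign of the choice in 48 of 61 (78.7%, against 49.0% of all probes) and 39 of 49 (79.6%, against 51.0%).

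The isobutanol effect also agreed in direction when 3-chloropropanol was left out. Over all 6006 probes the isobutanol and 3,4-dichlorophenol effects had a correlation of 0.57, so this agreement is not particular to the chosen probes. Over the same probes isobutanol effects had 0.53 with those of 3-chloropropanol and 0.45 with those of cadmium. Chosen by 3,4-dichlorophenol with the limits on cadmium and 2,3,4-trichloroaniline, 222 probes were rising and 197 falling. Isobutanol was called higher on 33 of the 222 (14.9%, against 6.29% of all probes) and lower on 63 of the 197 (32.0%, against 6.34%). Calls in the opposite direction were 0 and 4 (2.03%). The sign was shared by 180 (81.1%, against 49.0% of all probes) and 153 (77.7%, against 51.0%). The number called in the chosen direction, 96 in all, was 22 with arrays scaled to equal spread (of 123 isobutanol calls over all probes), 29 with quantile normalization (of 142) and 185 with array weights (of 1755), against 759 over all probes as deposited. Of the 419 probes, 100 were called for isobutanol, so 96 of the 100 had the sign of the 3,4-dichlorophenol difference. Applying the whole rule without 3-chloropropanol gave 75 rising and 90 falling probes, which include the 53.

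In this choice isobutanol had the smallest adjusted p among falling probes for 2 members. DM01970P1 was at -1.29 ± 0.03 in exposed animals and 0.13 ± 0.15 in controls (SD, n = 3), a change of -1.46 ± 0.17 (SE, limma adjusted p = 7.29e-08). DM02253P2 was at -0.41 ± 0.08 in exposed animals and 0.75 ± 0.11 in controls, a change of -1.16 ± 0.14 (limma adjusted p = 2.25e-07). Among rising probes, DM07113P4 changed by 0.76 ± 0.10 (limma adjusted p = 1.35e-06) and DM13197P1 by 1.20 ± 0.17 (limma adjusted p = 2.19e-06). Neither of these is a member, because 3-chloropropanol gave differences of 0.13 and 0.14. When 3-chloropropanol took part in the choice, the leading rising probes were the members DM12602P2, with 0.88 ± 0.13 (limma adjusted p = 1.05e-05), and DM10552P2, with 0.79 ± 0.13 (limma adjusted p = 4.88e-05). The call of DM10552P2 ended with quantile normalization (limma adjusted p = 0.0513).

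For 3,4-dichlorophenol, 64 rising and 55 falling probes were chosen by the 2 alcohols. It was called higher on 5 of the 64 (7.81%, against 1.28% of all probes) and lower on 11 of the 55 (20.0%, against 1.57%), with no call in the opposite direction. The sign was shared by 51 (79.7%, against 51.3% of all probes) and 50 (90.9%, against 48.7%). Chosen by isobutanol alone, with the limits on cadmium and 2,3,4-trichloroaniline, 332 probes were rising and 409 falling. Among these 3,4-dichlorophenol was called higher on 10 of the 332 (3.01%) and lower on 21 of the 409 (5.13%), with 1 and 0 calls in the opposite direction. The sign was shared by 244 (73.5%) and 326 (79.7%). DM09308P2 was at -0.48 ± 0.28 in exposed animals and 0.30 ± 0.18 in controls (SD, n = 3), a change of -0.72 ± 0.12 (limma adjusted p = 0.000329). DM01970P1 changed by -0.88 ± 0.17 (limma adjusted p = 0.00122), DM12602P2 by 0.62 ± 0.13 (limma adjusted p = 0.00501) and DM07455P3 by 0.60 ± 0.14 (limma adjusted p = 0.0113). Leaving out 1 exposed array, replicate 1 or replicate 3, left 7 calls in place of 16, and leaving out control replicates 1 or 2 gave 9 or 10, while the calls over all probes were 82 to 110 in place of 171. From the 6 arrays of this experiment alone there were 2 among the 119 chosen (1.68%) and 37 among all probes in either direction (0.616%), and DM01970P1 (0.0908), DM12602P2 (0.16) and DM07455P3 (0.17) had limma adjusted p-values above 0.05. DM12602P2 also lost its call without exposed replicate 1, and DM07455P3 without that array, without control replicates 1 and 3, and with either scaling.

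For 3-chloropropanol, 75 rising and 90 falling probes were chosen by isobutanol and 3,4-dichlorophenol. It was called higher on 9 of the 75 (12.0%, against 5.13% of all probes) and lower on 14 of the 90 (15.6%, against 3.6%), with no opposite call. The sign was shared by 49 (65.3%, against 52.7% of all probes) and 76 (84.4%, against 47.3%). On the probes chosen by isobutanol alone, 3-chloropropanol was called higher on 19 of the 332 rising (5.72%) and lower on 24 of the 409 falling (5.87%), the first of which is near the share of all probes. Opposite calls were 7 (2.11%) and 8 (1.96%). In this choice the sign was shared by 196 (59.0%, against 52.7% of all probes) and 250 (61.1%, against 47.3%). DM10652P1 changed by 0.91 ± 0.16 (limma adjusted p = 0.000219) and DM04759P2 by 1.08 ± 0.22 (limma adjusted p = 0.00186). DM12322P1 changed by -0.56 ± 0.10 (limma adjusted p = 0.000508) and DM07139P2 by -1.21 ± 0.23 (limma adjusted p = 0.00072). These 23 calls were 15 in number without exposed replicate 2, 12 and 11 without either of control replicates 1 and 3, and 11 with those 2 controls counted as 1 sample, while the calls over all probes were 260 to 361 in place of 524. Without control replicate 2 or exposed replicate 3 there were 27 each (16.4% of the 165 chosen), when 16.5% and 16.3% of all probes were called in either direction. From the 6 arrays of this experiment alone there were 2 of the 165 (1.21%), below the 2.71% of all probes called in either direction, and these 4 probes had limma adjusted p-values of 0.0545, 0.0921, 0.0592 and 0.0736.

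Aniline, 4-chloroaniline and 3,5-dichloroaniline played no part in the choice. No member was called with any of them, where 0%, 0.0333% and 0% of all probes were called by limma. At an unadjusted limma p under 0.05 there were 5 of 53 members with aniline (9.43%, against 6.18% of all probes), 2 with 4-chloroaniline (3.77%, against 10.04%) and 5 with 3,5-dichloroaniline (9.43%, against 4.41%). The differences ran from -0.40 to 0.39, from -0.51 to 0.39 and from -0.45 to 0.67. The mean effect of these 3 anilines was called on 0 members and on 0.0167% of all probes. It ranged from -0.25 to 0.19, with medians of 0.03 for rising and 0.03 for falling members and 0.00 over all probes. Its typical 95% confidence half-width was 0.19, so a joint effect of the size of the 3 that chose the members was not seen, and smaller ones cannot be told from 0. With array weights, aniline was called on 10 of the 53 members and on 623 of the 6006 probes. The mean effect and 3,5-dichloroaniline were then called on 1 member each, which is no result about the members as a set.

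Signs with the anilines were mixed. Rising members were positive in 18 of 25 with aniline, 15 with 4-chloroaniline and 14 with 3,5-dichloroaniline, against 49.9%, 53.7% and 48.3% of all probes. Falling members were positive in 15 and 12 of 28 with aniline and 4-chloroaniline and in 22 of 28 with 3,5-dichloroaniline, where their median difference was 0.16, opposite to the sign that chose them. In 6 of these 28 all exposed arrays were above all controls and in 1 below, 7 of 28 in all (9.19% of all probes). Among all 6006 probes 275 were above and 277 below. Of the 25 rising members 2 were above and 1 below with 3,5-dichloroaniline, 3 in all. For the falling members with 3,5-dichloroaniline, the Cy5 arrays (2 exposed, 1 control) had a median difference of 0.35. The Cy3 arrays (1 exposed, 2 controls) had 0.01. Groups did not overlap for 9 of the 53 members with aniline (8.82% of all probes) and for 1 with 4-chloroaniline (9.02%).

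The falling member with the smallest p for 3,5-dichloroaniline was DM00773P1. It was at -0.13, -0.02 and 0.28 in exposed animals and -0.40, -0.53 and -0.31 in controls, a change of 0.41 ± 0.14 (SE, limma adjusted p = 0.998). The next was DM06978P3, at 0.02, 0.11 and 0.24 in exposed animals and -0.27, -0.33 and -0.18 in controls (0.36 ± 0.13, limma adjusted p = 0.998). With aniline, the smallest p of a member was that of the rising member DM10552P2, at -0.36 ± 0.13 (limma adjusted p = 0.704), and with 4-chloroaniline that of the rising member DM12875P1, at 0.36 ± 0.15 (limma adjusted p = 0.386). None of these passed the threshold.

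Whether unexposed cohorts differed in a smaller share of members than of all probes varied with the threshold and the run. A limma F test over the controls of the aniline, 4-chloroaniline and 3,5-dichloroaniline experiments, none used in the choice, was called on 1 of 25 rising and 5 of 28 falling members, 6 in all (11.3%), against 16.8% of all probes. DM11322P1 was at 0.15 ± 0.33 in aniline controls, -1.07 ± 0.06 in 4-chloroaniline controls and -0.93 ± 0.41 in 3,5-dichloroaniline controls (SD, n = 3; limma adjusted p = 0.00559). DM01970P1 was at -0.29 ± 0.07, 0.41 ± 0.13 and 0.29 ± 0.09 in the same order (limma adjusted p = 0.00905). At an unadjusted limma p under 0.05 the F test had 21 of 53 members and 2016 of 6006 probes, a larger share of members. The share called was also larger among members with array weights (58.5%, against 52.5% of all probes). The same held from the arrays of these experiments alone (5.66%, against 3.75%). The calls among members moved with those among all probes. Without aniline control replicate 1 there were 19 (35.8%, against 27.2% of all probes), and without aniline control replicates 2 or 3 there was 1 each (1.89%, against 7.21% and 6.26%). Without 4-chloroaniline control replicates 1 or 2 there were 3 each (5.66%, against 7.21% and 11.3%). DM11322P1 lost its call without aniline control replicate 3 (limma adjusted p = 0.0594) and DM01970P1 without aniline control replicate 2 (0.0691).

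On the 18 arrays of these 3 experiments, after group means and dye were removed, pairs of rising members had a median correlation of 0.20 and pairs of falling members 0.11. Pairs of 1 rising and 1 falling member had -0.12, and the median over all pairs of the 6006 probes was -0.004. The points are arrays that share the reference, so these values are a description.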

How the data were processed

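The authors deposited 1 table of log2 ratios of sample and universal reference, 1 column per array, with every array's median near 0. The log base was inferred from the spike-in rows. Per the labels, labelling was 2-colour and started from 100 ng of RNA. How the authors corrected background, normalized and filtered probes, and on which slides and scans, is not given in the sources used here. The table holds 6006 Daphnia probes and 27 control rows, which were left out of the tests. Ratios carry no brightness, so dim probes could not be marked, and the number of arrays limits the precision.

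Groups came from sample titles, and the labels call the 3 samples of a group biological replicates. Differences of group means were computed on the values as deposited. Tests used limma 3.58.1 in R 4.3.3 on all 48 arrays, with 31 residual and 3.65 prior degrees of freedom. The fit pools the spread over experiments, and fits on each experiment's own arrays were an alternative. Tests of 1 effect are two-sided, and the test among controls is an F test. All were adjusted by Benjamini-Hochberg over all probes within a comparison, and the fit was tested on simulated data. Other steps ran in Python 3.11.15.

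Named probes are the 2 rising and 2 falling members with the largest smallest difference, those nearest the threshold, and for each test up to 2 higher and 2 lower probes with the smallest p. Some that the rule names are not described. Gene lists could not be applied without gene names. The members, lists and tests were chosen with earlier results of these data known.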

Additional observations from a re-analysis of the deposited data

Results flagged for a closer look

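For 3 falling members the exposed and control arrays did not overlap with 3,5-dichloroaniline or with aniline, and the 2 differences had opposite signs. Other falling members had opposite signs with overlapping arrays. The 3,5-dichloroaniline effect minus the aniline effect was 0.70 for DM00773P1, 0.69 for DM06978P3 and -0.64 for DM01970P1 on the log2 scale. DM00773P1 had differences of 0.45 with 3,5-dichloroaniline and -0.25 with aniline, DM06978P3 had 0.38 and -0.31, and DM01970P1 had -0.25 and 0.39. The difference of the effects itself, with the dye term, did not pass limma's test (adjusted p = 0.516, 0.507 and 0.789, in the order of the first sentence of values). That contrast was called on 0 of the 6006 probes, with 334 at an unadjusted p under 0.05.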

How the results depend on the processing

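The number of members, 53 as deposited, was 135 with a threshold of 0.2, 18 with 0.4, 16 with a limit of 0.15 in cadmium and 2,3,4-trichloroaniline, 25 with arrays scaled to equal spread (14 of them among the 53) and 165 without 3-chloropropanol in the rule. It lay between 43 and 59 when 1 array was left out, and was 37 with quantile normalization (23 among the 53), 44 with 3-chloropropanol controls 1 and 3 as 1 sample (41 among the 53) and, with within-dye differences, a choice made after seeing the data, 51 (27 among the 53). Calls in the chosen direction are given here for isobutanol chosen without its own arrays (32 in the report's fit), isobutanol without 3-chloropropanol (96), 3,4-dichlorophenol (16) and 3-chloropropanol (23), in that order. Scaling arrays to equal spread gave 8, 22, 5 and 8, quantile normalization 9, 29, 5 and 17, and array weights 51, 185, 45 and 52. Array weights also raised the calls over all probes. The 52 for 3-chloropropanol were 31.5% of the 165 chosen, below the 42.1% of all probes called in either direction. The 45 for 3,4-dichlorophenol were 37.8% of the 119, against 10.6%. For isobutanol, the 51 and 185 were among 110 and 419 chosen probes, and 1755 of all 6006 were called. Calls in the chosen direction were 30, 72, 14 and 18 with no dye term and 34, 94, 18 and 22 over the more variable probes. They were 61, 177, 21 and 33 with a threshold of 0.2 in the choice and 12, 53, 9 and 13 with 0.4. From the arrays of each experiment alone they were 44, 124, 2 and 2. Leaving out 1 array gave 25 to 29, 64 to 77, 7 to 23 and 11 to 27. Counting 3-chloropropanol controls 1 and 3 as 1 sample, a choice made after seeing the data, gave 11 for 3-chloropropanol. Choosing by isobutanol alone, also added after seeing the data, gave 31 of 741 probes for 3,4-dichlorophenol and 43 of 741 for 3-chloropropanol, from a wider choice than the 119 and 165.

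With array weights, members called were 10 of the 53 with aniline, 1 with 3,5-dichloroaniline and 1 for the mean of the 3 anilines. The count over all probes for aniline is given above. With 1 aniline array left out, 0 to 1 members were called with aniline (1 without control replicate 1). A call on 1 member is no result about the members as a set. Members that differed among the 3 aniline control groups were 31 with array weights (58.5%, against 52.5% of all probes) and 3 with quantile normalization (5.66%, against 12.6%). There were 3 from the arrays of these experiments alone (5.66%, against 3.75%), and 1 to 19 with 1 array left out. The replicate block, with experiment and number as a fixed term, gave 32, 88, 13 and 19 calls in the order above. Calls over all probes in either direction were then 668, 668, 126 and 421. With the block, 0 members were called for each aniline and for their mean. The block could not be fitted for controls of different experiments. Same-numbered samples correlated above 0.1 in 13 of 24 pairs (-0.43 to 0.42), so the numbers were not taken as pairs. The cause of these changes was not tested. Probes named for a test were followed over the alternative runs of that test, and none changed sign with a call. Other named probes, such as DM06945P1 and DM06664P3 near the threshold, were not followed in this way.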
